A study of Mus musculus with 15 samples.

Results

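The regions described are Miz1 ChIP-seq peaks whose summit lay beside a GA repeat. A peak was a member when 4 or more consecutive GA dinucleotides, or TC on the other strand, lay within 50 bp of its summit in mm9. The members were thus chosen from the summit positions of the Miz1 peak lists themselves. The rule found 875 members among the 8310 peaks of the fibroblast list and 939 among the 4488 peaks of the B cell list, 1814 of 12798 peaks in all. For 12 fibroblast and 8 B cell peaks no reference sequence could be read, and these belong to neither class. The other 7423 fibroblast and 3541 B cell peaks serve as the comparison and are called peaks without the repeat.

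The fibroblasts were 3T9-MycER, a mouse embryonic line (E13.5) with c-myc flox/flox alleles that had been infected with MycER, a fusion of Myc to a hormone-binding domain that is switched on by 4-hydroxytamoxifen (OHT). Miz1 was mapped in these cells without OHT, and in B220-selected B cells from the spleen of C57BL/6 wild-type mice of 6 to 8 weeks, with the home-made antibody 10E2. Myc (antibody N262) and RNA polymerase II (RNAPII, antibody N20) were mapped in the fibroblasts without OHT (0 min) and after 10, 20 and 30 min, 2 h and 4 h with 400 nM OHT. There was 1 library per group, so differences between libraries could not be set against replicates and were not tested. Every interval printed below is a Wilson 95% interval of a share and covers counting error only. Where a share is called higher or lower, the statement rests on the counts and these intervals and not on a test. The antibody against Myc is not said to separate endogenous Myc from MycER. The labelled fibroblasts could be checked in their own peaks: 7 of 8 fibroblast markers (Thy1 was the exception) and 0 of 8 B cell markers had a Myc and an RNAPII promoter peak at 0 min. B cells have Miz1 peaks only, which mark no cell type.

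Miz1, encoded by Zbtb17, is a transcription factor with a BTB/POZ domain and a row of zinc fingers. It binds DNA itself and is known as a partner through which Myc can lower transcription, for example at genes of CDK inhibitors. GA repeats are simple repeats, common in the mouse genome, in which 1 strand holds only purines and the other only pyrimidines. In Drosophila such repeats are bound by GAGA factor, another BTB zinc-finger protein that opens chromatin at promoters.

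The sites below show what the rule collected, with the repeat run in capitals and 15 bases on either side, read on the plus strand of NCBIM37 (mm9). The first set holds strong distal and promoter members of the fibroblast list: Ablim1 (chr19:57379241-57379308, intron), Fbxo32 (chr15:58090993-58091062, an intron of Gm15943) and Plau (chr14:21655719-21655820, intergenic, upstream of the TSS).

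Ablim1: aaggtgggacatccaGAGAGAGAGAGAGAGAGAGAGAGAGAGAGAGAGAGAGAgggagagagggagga
Fbxo32: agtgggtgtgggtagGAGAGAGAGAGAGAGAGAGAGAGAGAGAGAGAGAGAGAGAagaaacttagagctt
Plau: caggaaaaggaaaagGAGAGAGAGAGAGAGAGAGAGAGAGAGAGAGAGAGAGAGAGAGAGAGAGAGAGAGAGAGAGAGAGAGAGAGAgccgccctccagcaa

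The second set holds strong B cell members: Mrpl39 (nearest gene, chr16:84606362-84606433, intergenic), Pax5 (chr4:44683957-44684030, intron) and Ctse (chr1:133535488-133535553, intron).

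Mrpl39: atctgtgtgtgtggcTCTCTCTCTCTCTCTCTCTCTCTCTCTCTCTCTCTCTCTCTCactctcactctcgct
Pax5: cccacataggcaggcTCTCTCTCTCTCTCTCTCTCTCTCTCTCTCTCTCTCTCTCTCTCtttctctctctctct
Ctse: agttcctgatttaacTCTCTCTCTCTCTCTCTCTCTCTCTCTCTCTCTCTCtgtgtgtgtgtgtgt

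The third set holds members that were peaks in both cell types, namely Gnai3 (chr3:107950881-107950954, intergenic), Hexim1 (chr11:102976933-102976970, intergenic) and Kpnb1 (chr11:97049235-97049272, intergenic). Hexim1 and Kpnb1 have the shortest run that the rule admits.

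Gnai3: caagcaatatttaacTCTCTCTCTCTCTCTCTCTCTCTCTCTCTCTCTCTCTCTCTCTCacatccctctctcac
Hexim1: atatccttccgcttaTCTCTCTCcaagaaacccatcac
Kpnb1: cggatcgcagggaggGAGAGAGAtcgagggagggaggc

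For contrast, Klhdc10 (chr6:30351687-30351742) in fibroblasts and Ercc2 (chr7:19967135-19967190) in B cells are peaks without the repeat that hold the palindrome ATCGAT, in capitals, with 25 bases on either side; they were picked as examples after their values had been seen.

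Klhdc10: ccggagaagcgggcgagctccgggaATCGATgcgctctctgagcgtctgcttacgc
Ercc2: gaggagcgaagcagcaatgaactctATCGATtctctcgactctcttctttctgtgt

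Miz1 summits carried the repeat more often than the sequence beside them. In fibroblasts 10.5% (9.90 to 11.2) of the summits held it, against 2.29% of windows of the same width 1000 bp away. In B cells 21.0% (19.8 to 22.2) held it, against 2.19% of the windows 1000 bp away. Across the genome 1.89% of all positions, and 1.75% of positions within 1000 bp of a protein-coding transcription start site (TSS), would have met the rule. CA repeats of the same length were far closer to their surroundings, at 4.03% of fibroblast summits against 3.92% of the flanking windows and 5.11% against 3.83% in B cells. The summits of the other factors did not show the excess. At 0 min 1.02% of 19994 Myc summits and 0.959% of 18877 RNAPII summits met the rule, below their own flanking windows at 1.99% and 1.59%. These summits came from another version of the peak caller and a stricter cutoff than the Miz1 summits. The Myc and RNAPII peaks had median widths of 1722 and 2616 bp, so a window 1000 bp away can lie inside the same peak.

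The share of genomic runs that lay under a Miz1 summit grew with the length of the run. The members' longest run had a median of 23 units of 2 bp in both lists, with quartiles of 15 and 28 in fibroblasts and 17 and 28 in B cells, and a maximum of 85 and 83. Of the 573921 runs of 4 or more units in the genome, 64.5% had only 4 or 5 units, but such short runs were the longest one at 11.1% of the fibroblast and 6.92% of the B cell members. Of the genomic runs of 4 or 5 units, 0.0627% lay under a fibroblast summit and 0.0519% under a B cell summit. For runs of 20 to 24 units these shares were 0.684% and 0.779%, and for runs of 40 or more units they were 4.46% (3.12 to 6.33) and 4.15% (2.87 to 5.98). Of the 650 runs in that longest class, 46 lay under a summit of either list and the others under none. A longer run has more positions at which a summit meets the rule, so part of the rise with length is built in. No expected share per length was computed. Runs of 26 or more units are longer than the 51-bp tags, and 35.5% of the fibroblast and 37.3% of the B cell members held such a run. How tags that match many repeats were placed is not given in the sources used here. With runs of 26 or more units set aside, 6.80% of the fibroblast and 13.1% of the B cell summits still held a run.

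**Figure D1:**
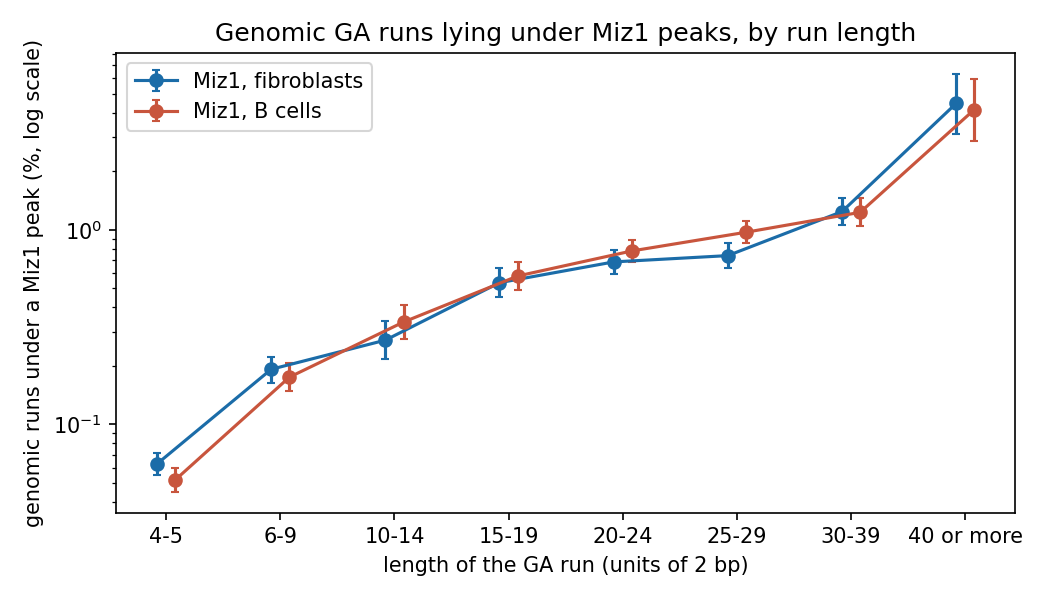
Percent of the GA runs of the mouse genome (log axis) that lay within 50 bp of a Miz1 summit, by length of the run in units of 2 bp, for fibroblasts (blue) and B cells (red); bars are Wilson 95% intervals. Both lines rise from under 0.1% at 4 to 5 units to above 4% at 40 units or more.

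At the rule's edge the members had median pileups near those of the peaks they were separated from. In fibroblasts 72 members had a longest run of exactly 4 units, and 613 peaks had 3 and were left out. Their median pileup was 9 in both cases, and 8.33% and 10.1% of them were shared with B cells. In B cells 47 members had 4 units and 334 peaks had 3, with median pileups of 27 and 29 and shared shares of 12.8% and 17.1%. A fibroblast Myc peak at 0 min overlapped 52.8% of the fibroblast peaks with 4 units and 42.3% of those with 3. For the B cell peaks these shares were 23.4% and 25.4%. Promoter shares were 29.2% and 23.7% in fibroblasts and 29.8% and 29.3% in B cells.

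Summits outside the run lay more often on one side of it. The summit lay inside the run at 29.8% (26.9 to 32.9) of the fibroblast and 35.1% (32.2 to 38.3) of the B cell members. The rule admitted summits up to 43 bp outside a run. The share inside thus depends on the window and the run length, and no preference for a place beside the run is read from it. Where the summit lay outside, it was on the 3′ side of the run, read along the GA strand, at 60.7% (56.8 to 64.5) of 614 fibroblast and 65.5% (61.7 to 69.2) of 609 B cell members. The lean was present for runs with GA on the plus strand (59.5% and 64.1%) and on the minus strand (62.0% and 67.0%). The median summit was 12.5 bp in fibroblasts and 15.5 bp in B cells to the 3′ side of the run's midpoint. The repeat was not oriented towards genes: GA was on the sense strand at 45.5% (37.5 to 53.6) of 143 fibroblast and 47.4% (39.2 to 55.8) of 135 B cell members near a protein-coding TSS.

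**Figure D2:**
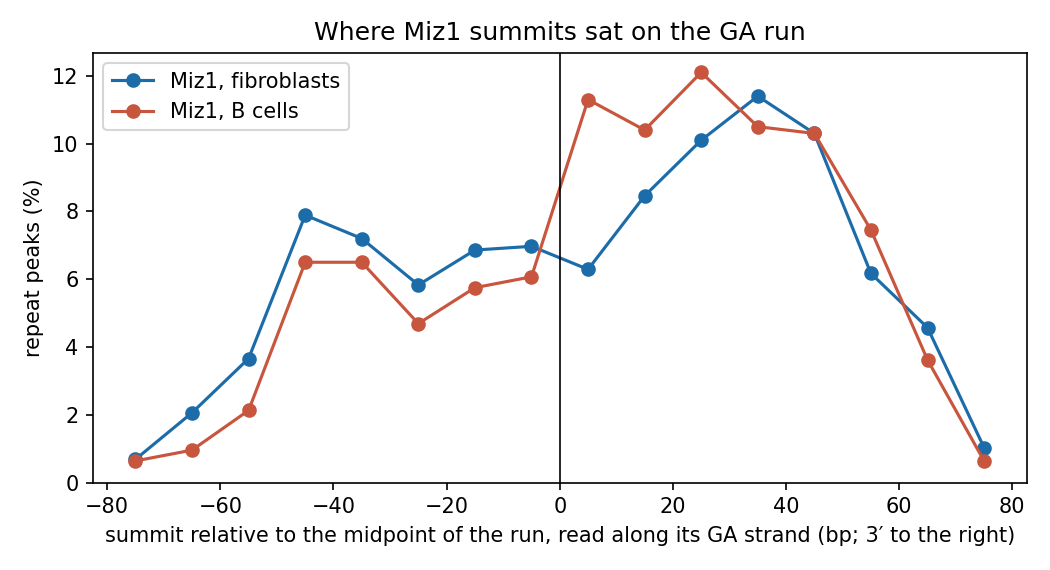
Percent of members by the distance in bp from the midpoint of the GA run to the Miz1 summit, in steps of 10 bp, with the GA strand read from left (5′) to right (3′). In both lists more summits lie to the right of the midpoint than to the left, with medians of 12.5 bp in fibroblasts and 15.5 bp in B cells.

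The sequence around the members was a purine or pyrimidine stretch in most cases. ATCGAT and CACGTG were rare there, as they were at the other Miz1 peaks. A stretch of 30 or more bases made only of purines or only of pyrimidines lay within 50 bp of the summit at 67.5% of the fibroblast members and 71.1% of the B cell members, a measure that overlaps the rule. At peaks without the repeat it lay at 0.512% and 1.02%. ATCGAT, which reads the same on both strands, was found within 100 bp of the summit at 5 fibroblast members (0.571%) and 3 B cell members (0.319%). At peaks without the repeat it was found at 1.16% and 2.51%, with intervals of 0.109 to 0.935 and 2.05 to 3.08 for the B cell members and the other B cell peaks. CACGTG, the canonical E-box of Myc, was found in the same window at 1.37% of the fibroblast members and 3.21% of the other fibroblast peaks. In B cells it was found at 2.34% (1.55 to 3.52) and 3.36% (2.82 to 4.01), with overlapping intervals. At members the run fills part of this window. A match of letters does not show that a factor bound there.

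Fibroblast members were peaks of middle to high strength, and B cell members spread over most of the range. Members were rare among the 100 strongest peaks of either list. Pileup is the number of extended tags over the summit, as the authors' caller gave it in each list. In fibroblasts the members' pileup ranged from 5.00 to 85.0 with a median of 12.0, and that of the other peaks from 5.00 to 394 with a median of 9. The members' median stood at percentile 71.7 of their list, and that of the other peaks at 48.1. In B cells the members' pileup ranged from 14.0 to 286 with a median of 32.0, against 13.0 to 397 and 29, and the median percentiles were 56.0 and 48.2. The share of summits with the repeat climbed over 10 equal parts of the fibroblast list, ranked by pileup, from 3.13% in the weakest part to 20.7% in the strongest. In B cells it was 19.0% in the weakest part, 28.3% in the next to last and 16.1% in the strongest. Of the 100 strongest peaks, 0 in fibroblasts and 2 in B cells were members, and the first member ranked 124 and 83. Of the 100 strongest peaks, 16 and 19 held ATCGAT, and they lay within 1000 bp of a TSS 90 and 84 times. Pileup divided by fold enrichment, which stands for the local background, had a median of 1.34 at fibroblast members and at the other fibroblast peaks. This was also its lowest value in both, so the equal medians cannot show an equal background. The upper quartiles were 1.71 at fibroblast members and 1.88 at the others. In B cells the medians were 2.95 and 3.10. These values come from the lists that chose the members and are descriptions only.

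**Figure D3:**
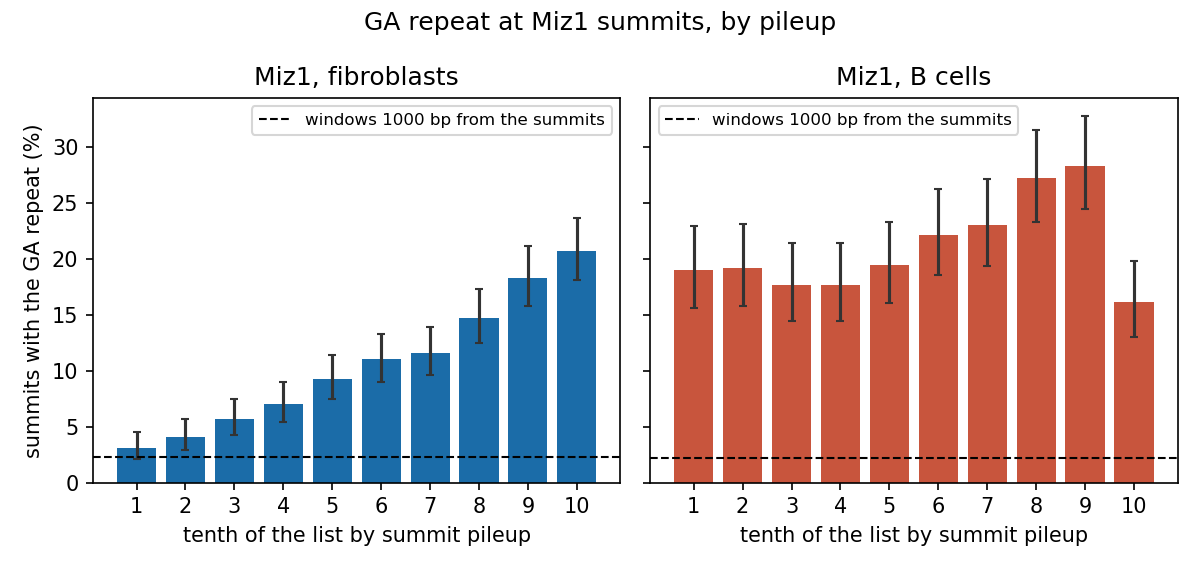
Percent of Miz1 summits with the GA repeat in 10 equal parts of the list ranked by summit pileup (1 is the weakest), with Wilson 95% intervals; the dashed line is the share in windows 1000 bp from the summits (2.29% and 2.19%). The share climbs from 3.13% to 20.7% in fibroblasts, whereas in B cells it peaks at 28.3% in the next to last part and is 16.1% in the strongest.

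Members lay away from promoters more often than other Miz1 peaks. A summit was within 1000 bp of the TSS of any annotated transcript at 166 fibroblast members, 19.0% (16.5 to 21.7), against 24.0% of the peaks without the repeat and 23.5% of the whole list. In B cells this held for 167 members, 17.8% (15.5 to 20.4), against 30.6% of the other peaks and 27.9% of the whole list. Those near a protein-coding TSS were also farther from it. The summit was within 250 bp of the TSS at 28.0% (21.3 to 35.8) of the fibroblast and 31.9% (24.6 to 40.1) of the B cell members, against 55.9% and 65.6% of the other promoter peaks. Exons held 3.31% of the fibroblast and 3.51% of the B cell members, against 7.25% and 10.6% of the whole lists. Introns held 44.0% and 49.2% of the members, against 42.0% and 43.3%, and the space between genes 52.7% and 47.3%, against 50.7% and 46.0%. CpG dinucleotides, which are dense at many mammalian promoters, had a median count of 1.00 within 100 bp of the summit at members of either list, where the run fills part of the window, against 2.00 at the other fibroblast peaks and 3.00 at the other B cell peaks.

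The strongest promoter members of the fibroblast list were at Mab21l2, Usp54, Hexim1, Plau, C030039L03Rik, 2810030E01Rik, Ctnnd1 and Nfia. The highest, with a pileup of 65.0 and a run of 35 units, was 346 bp upstream of Mab21l2, a gene of eye development that sits in an intron of Lrba. Usp54, which encodes a protein of the ubiquitin-specific protease family, had a pileup of 54.0 and a run of 27 units 819 bp upstream of its TSS. Hexim1, which encodes an inhibitor of the elongation kinase P-TEFb, had a pileup of 52.0 at a run of only 4 units, 707 bp upstream. Plau, which encodes the urokinase-type plasminogen activator, had a pileup of 48.0 at a run of 36 units, 166 bp upstream. C030039L03Rik followed with a pileup of 46.0 at 42 units and 2810030E01Rik with 37.0 at 31 units. Ctnnd1, which encodes a catenin of adherens junctions, had a pileup of 34.0 at 9 units, and Nfia, which encodes a transcription factor of the nuclear factor I family, had 34.0 at 37 units. Of these 8, Usp54, Hexim1, Plau, C030039L03Rik, 2810030E01Rik and Nfia overlapped a B cell peak, and Mab21l2 and Ctnnd1 did not.

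Among the 8 strongest promoter members of the B cell list were those at Ctse, C030039L03Rik, Pld4, Fli1, Kpnb1, Gbp5 and Cd22. Ctse, which encodes the aspartic protease cathepsin E, had a pileup of 176 at a run of 18 units, 448 bp into the gene. C030039L03Rik had a pileup of 154. Pld4, a member of the phospholipase D family, had 145 at a run of 4 units, 397 bp upstream of its TSS. Fli1, which encodes an ETS factor of blood and endothelial cells, had 132 at a run of 28 units, 111 bp upstream. Kpnb1, which encodes an importin, and Gbp5, which encodes an interferon-induced GTPase, each had a pileup of 112. Cd22, which encodes an inhibitory receptor of B cells, had 110 at a run of 23 units, 43 bp into the gene. Of those named, C030039L03Rik, Fli1 and Kpnb1 also had a fibroblast Miz1 peak, with pileups of 46.0, 9 and 28.0.

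The strongest distal members of the fibroblast list were near Gnai3, which encodes an inhibitory G protein subunit (pileup 85.0, 1858 bp upstream), in Ablim1, which encodes an actin-binding LIM protein (78.0), nearest to Fbxo32, which encodes an F-box subunit of a ubiquitin ligase (78.0, 44599 bp away), and nearest to Aloxe3, in an exon of Hes7 (73.0). In B cells they were nearest to Sap30bp, in an intron of Recql5 (286), near Gnai3 (258), 129545 bp from the TSS of Mrpl39 (228), and in an intron of Pax5, which encodes a transcription factor of B cell identity (182). Nearness to a gene does not show that the gene is regulated from the site.

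The longest runs were not at the strongest peaks. In fibroblasts the run of 85 units upstream of Cand2, which encodes a cullin-associated protein, had a pileup of 27.0, and the run of 83 units in an intron of Zfp710 had 30. Runs of 63, 61 and 55 units nearest to Btf3, Kcnrg and Stau2 had pileups of 14.0, 15.0 and 12.0. In B cells the run of Zfp710 had a pileup of 39.0, and a run of 76 units 26816 bp from the TSS of Cdkn1b, which encodes a CDK inhibitor, had 23.0. Runs of 63, 61 and 58 units whose nearest protein-coding genes were Bcor, Kcnrg and Cdca4 had pileups of 31.0, 35.0 and 27.0. Across the classes of run length the members' median pileup percentile in fibroblasts was 48.1 for 4 to 9 units, 71.7 for 10 to 19 units, 76.0 for 20 to 29 units and 77.7 for 30 units or more. In B cells it was 38.5, 53.7, 59.9 and 58.1 in the same classes, with no further climb in the longest.

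Counted by gene, few promoters carried a member. Of 22238 protein-coding genes, 147 (0.661%) had a fibroblast member within 1000 bp of a TSS and 140 (0.630%) a B cell member. Another Miz1 peak lay there at 1618 (7.28%) and 1038 (4.67%) genes. Among the genes with a member 41 were found in both cell types, which is 27.9% of the fibroblast and 29.3% of the B cell genes. Among the genes with another peak 452 were found in both, which is 27.9% of the fibroblast and 43.5% of the B cell genes. The lists of 30 vesicle traffic and autophagy genes, 25 cytosolic ribosomal protein genes and 20 fibroblast and matrix genes had 0 members at their promoters in either cell type; at the share of all genes, lists of this size would seldom hold one, so nothing is read from these counts. Of 19 B cell genes, Cd22 and Pou2af1, which encodes a B cell coactivator, had a member in B cells, at pileups of 110 and 26, and none had one in fibroblasts. Of 19 neuronal genes, Gria1, which encodes a glutamate receptor subunit, and Gap43, which encodes an axonal growth protein, had a member in fibroblasts, at low pileups of 7.00 and 8.00, and none had one in B cells.

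Members of the fibroblast list were shared with B cells more often than other fibroblast peaks, whereas members of the B cell list were not. A fibroblast member overlapped a B cell peak at 153 of 875 sites, 17.5% (15.1 to 20.1), against 9.92% of the peaks without the repeat and 10.7% of the whole list. A B cell member overlapped a fibroblast peak at 173 of 939 sites, 18.4% (16.1 to 21.0), against 20.2% and 19.9% of the whole list. Among distal fibroblast peaks 14.4% (12.0 to 17.2) of the members and 5.88% of the others were shared, and among promoter peaks 30.7% (24.2 to 38.1) and 22.7%. The fibroblast list was called at a p cutoff of 1e-02 and the B cell list at 1e-05. Among fibroblast peaks with −log10 p of 5 or more, 20.7% of the members and 17.4% of the others were shared. The distal gap remained there, at 17.8% (14.7 to 21.3) against 10.8% (9.62 to 12.1), and the promoter gap was small, at 32.1% against 30.8%.

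Sharing rose with the length of the run in fibroblasts, and in B cells mainly in the longest class. In fibroblasts it was 9.33% for 4 to 9 units, 15.5% for 10 to 19, 17.8% for 20 to 29 and 25.6% for 30 units or more. In B cells it was 12.6%, 15.9%, 16.0% and 31.1% in the same classes. Runs of the longest class exceed the 51-bp tags, and how tags that match many repeats were placed is not given. With runs of 4 to 25 units, 14.7% of the fibroblast and 15.3% of the B cell members were shared. Peaks without the repeat were shared at 9.92% and 20.2%. Of the 555 genomic runs of 20 or more units within 50 bp of a fibroblast summit, 18.6% (15.5 to 22.0) were also that near a B cell summit. Of the 65243 runs of that length that were not near a fibroblast summit, 0.815% were near a B cell summit. No like comparison was made for peaks without the repeat, so this gap is not read as a property of long runs. Where peaks of the 2 cell types overlapped and both summits had the repeat, which was so for 139 pairs, the summits were a median of 28.0 bp apart. In the 701 pairs with no repeat the median was 30 bp. The rule holds both summits of the 139 pairs near a repeat, so these medians are not a like comparison. With the repeat at the fibroblast summit only (14 pairs) the median was 64.0 bp, and at the B cell summit only (35 pairs) 96.0 bp. The highest shared members by rank were at Gnai3 (pileup 85.0 in fibroblasts and 258 in B cells), C030039L03Rik (46.0 and 154), Aloxe3 (73.0 and 110), 5730508B09Rik (33.0 and 111), Rax (32.0 and 103), Kpnb1 (28.0 and 112), Hexim1 (52.0 and 85.0) and Adamts6 (28.0 and 87.0). Pileups of the 2 lists are not scaled to each other, since the B cell library held 24237295 tags and the fibroblast library 10164509.

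**Figure D4:**
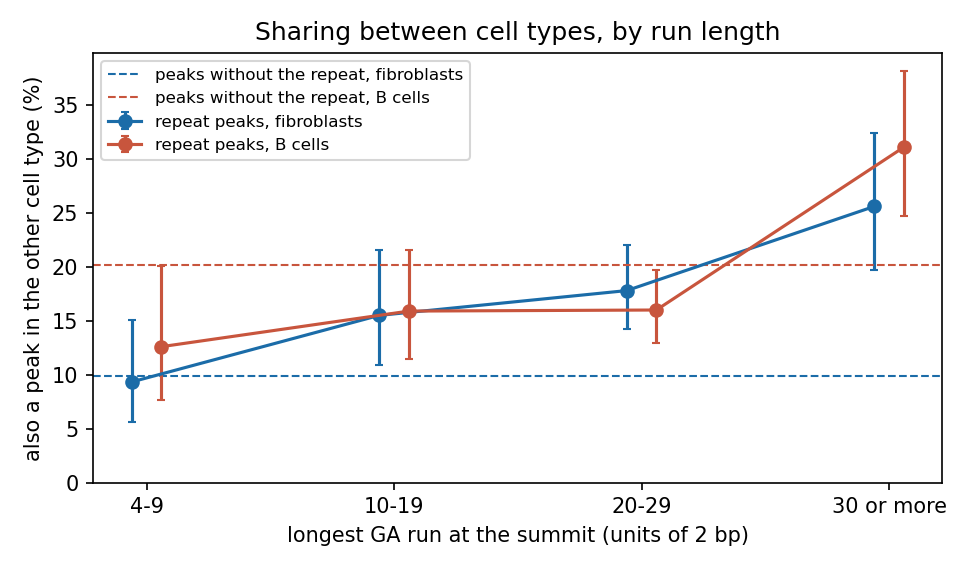
Percent of members that overlapped a Miz1 peak of the other cell type, by the longest GA run at the summit in units of 2 bp, with Wilson 95% intervals; dashed lines are the peaks without the repeat (9.92% in fibroblasts, 20.2% in B cells). Sharing goes from 9.33% to 25.6% in fibroblasts and from 12.6% to 31.1% in B cells.

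Myc peaks covered fibroblast members at promoters less often than other Miz1 promoter peaks. The Myc peaks were wide, with a median of 1722 bp at 0 min. At 0 min 354 members, 40.5% (37.3 to 43.7), overlapped a Myc peak, against 42.3% of the peaks without the repeat and 42.1% of the whole list. At promoters the shares were 64.5% (56.9 to 71.3) and 84.7% (82.9 to 86.3). Away from promoters they were 34.8% (31.4 to 38.4) and 29.0% (27.8 to 30.2). The totals and the distal shares depended on the weak fibroblast peaks. With −log10 p of 5 or more the totals were 45.1% for members and 58.3% for the others, and the distal shares were 39.8% (35.7 to 44.0) and 43.1% (41.2 to 45.1), with overlapping intervals. The promoter gap was also present there, at 65.7% (57.3 to 73.2) and 89.1% (87.2 to 90.7).

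Where Myc and Miz1 peaks overlapped, their summits were farther apart at members. At promoters the median distance between the Miz1 and the Myc summit at 0 min was 480 bp for members and 238 bp for other peaks, and away from promoters it was 364 and 231 bp. The summits were within 100 bp of each other at 9.35% of 107 promoter members and 13.0% of 247 distal members, against 30% and 28.9% of the other peaks. The Myc peaks over members were also weaker, with a median percentile of fold enrichment in the Myc list of 61.1 at promoters and 38.9 elsewhere, against 74.6 and 54.7. Ablim1 was among the close ones, with a Myc summit 86 bp from the Miz1 summit at 0 min. At Plau the distance was 88 bp and at Hexim1 it was 223 bp. At Mab21l2 it was 349 bp. Among all named fibroblast members with a Myc peak at 0 min, the distance ran from 31 bp at Usp54 to 2390 bp at Fbxo32.

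After OHT the share of members under a Myc peak was higher at every later time, and so was that of the other peaks. It was 46.5% for members and 46.0% for the whole list at 10 min, 49.7% and 47.5% at 20 min, 44.5% and 44.6% at 30 min, 52.7% and 48.7% at 2 h, and 46.7% and 45.8% at 4 h. The Myc lists held 19995 peaks at 0 min and 22996 to 27388 later. Of the members 16.1% had a Myc peak at some later time but not at 0 min, against 7.93% of the peaks without the repeat, and 43.4% had none at any time, against 49.7%. The Myc peaks of the 6 lists are calls on separate libraries, so a peak that appears in a later list can be one that had just missed the cutoff.

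RNAPII covered members less often than other Miz1 peaks. A narrow RNAPII peak, with a median width of 2616 bp, overlapped 254 members at 0 min, 29.0% (26.1 to 32.1), against 36.3% of the peaks without the repeat and 35.6% of the whole list. At promoters the shares were 69.3% (61.9 to 75.8) and 86.3% (84.6 to 87.8), and elsewhere 19.6% (16.8 to 22.7) and 20.6% (19.5 to 21.6). With −log10 p of 5 or more the distal shares were 22.0% and 29.4%. For members and the whole list the shares were 29.9% and 36.7% at 10 min, 31.9% and 38.3% at 20 min, 27.5% and 35.0% at 30 min, 26.6% and 33.8% at 2 h, and 25% and 32.4% at 4 h. Members lay below the whole list at all 6 times. A Myc peak without an RNAPII peak at 0 min lay at 17.0% of the members and 10.5% of the peaks without the repeat. Among the strongest distal members, Ablim1 overlapped Myc at all 6 times and RNAPII at none, Fbxo32 both at all 6 times, and Gnai3 RNAPII at all 6 times and Myc at none. The RNAPII peak at Gnai3 ended before the Miz1 summit at 0 min and 4 h, with its own summit 1846 and 1866 bp away. At Fbxo32 the Myc and RNAPII summits lay 2390 and 2229 bp from the Miz1 summit at 0 min, and 3 and 2534 bp at 4 h.

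**Figure D5:**
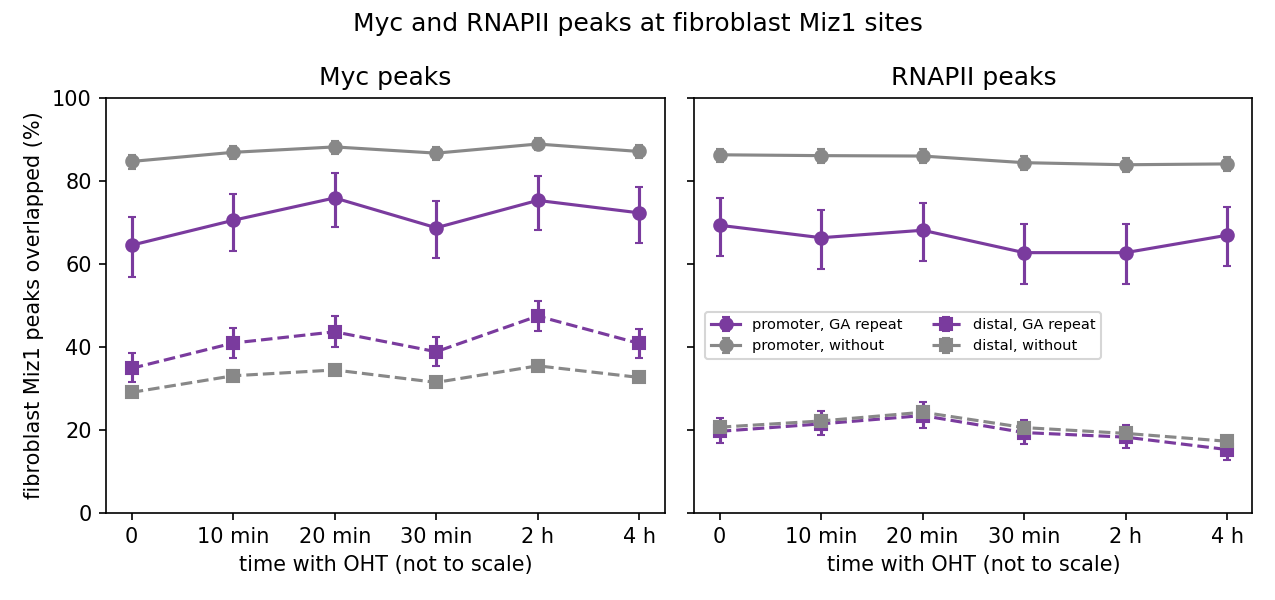
Percent of fibroblast Miz1 peaks overlapped by a Myc peak (left) or a narrow RNAPII peak (right) at each time with OHT, for members (purple) and peaks without the repeat (grey), at promoters (solid) and elsewhere (dashed), with Wilson 95% intervals. At promoters members lie below the other peaks at every time for both proteins, as at 0 min with 64.5% against 84.7% for Myc and 69.3% against 86.3% for RNAPII.

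Long GA runs at a fibroblast Miz1 summit differed from those at no Miz1 summit in what else lay there. A run counted as at a summit when 4 or more of its units lay within 50 bp of it. Runs elsewhere in a Miz1 peak were thus counted as at none. Of the 458 distal runs of 20 or more units at a fibroblast summit, 31.9% (27.8 to 36.3) lay under a Myc peak at 0 min. An RNAPII peak covered 17.7% (14.5 to 21.4) of them. For the 62768 distal runs of that length at no Miz1 summit, these shares were 0.540% and 0.782%. Runs at a B cell summit only, where Myc and RNAPII come from another cell type than Miz1, were in between. Of 466 distal ones 4.08% (2.63 to 6.28) lay under a fibroblast Myc peak and 4.72% (3.14 to 7.04) under an RNAPII peak. Distal fibroblast Miz1 peaks without the repeat, counted by peak, overlapped Myc at 29.0% and RNAPII at 20.6% at 0 min. The contrast with runs at no summit is thus not particular to GA runs. A TSS lay within 1000 bp of 17.5% of the runs at a fibroblast summit. The share was 12.4% for runs at a B cell summit only and 3.00% for those at none.

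Over all B cell members, fibroblast Myc peaks at 0 min covered 17.0% (14.8 to 19.6) of them, against 28.7% of the other B cell peaks and 26.3% of the whole list, and fibroblast RNAPII peaks covered 18.0% (15.7 to 20.6), against 31.5% and 28.7%. The gap lay at promoters, with 51.5% (44.0 to 59.0) of the members and 76.3% (73.7 to 78.7) of the others under a Myc peak and 58.1% and 81.2% under an RNAPII peak. Away from promoters the shares were 9.59% (7.70 to 11.9) and 7.73% (6.74 to 8.86) for Myc and 9.33% and 9.56% for RNAPII. Of the 173 B cell members that were also fibroblast peaks 50.9% (43.5 to 58.2) lay under a fibroblast Myc peak, and of the 766 that were not 9.40% (7.53 to 11.7). B cell peaks without the repeat also differed in this way, at 59.7% when shared and 20.9% when not. Ctse, Pld4, Gbp5 and Cd22 had neither a Myc nor an RNAPII peak at any of the 6 times in fibroblasts, and Kpnb1 had both at all 6.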

How the data were processed

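ChIP-seq peak lists of 14 mouse samples were used; the input library enters only as a control of the calls. The submitters' aligner was BWA 0.6.2-r126 and the build mm9, with MACS2 2.0.9 also listed, per the submitters' processing notes. Each list is a call on 1 library, per the file headers. The Miz1 lists came from MACS 2.0.9 with an effective genome of 1.87e+09 bp, up to 2 duplicates kept and 51-bp tags, at p cutoffs of 1e-02 (fibroblasts, 10164509 tags, 16137288 in the control) and 1e-05 (B cells, 24237295 and 32715159), per the file headers. The lists of Myc and of narrow RNAPII peaks came from MACS 1.4.2 at 1e-08, and broad RNAPII lists from MACS 2.0.9 at 1e-08, per the file headers. The Miz1 and broad lists give a deposited pileup signal, −log10 p and −log10 q; the MACS 1.4.2 lists give tag counts, a score of −10 log10 p and a false discovery percent, as deposited by the authors; fold enrichment is a deposited ratio in all of them. These values are the authors' and were used only within a list.

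Sequence was read from NCBIM37, with GENCODE vM1 genes. Promoters were 1000 bp either side of a TSS, overlaps at least 1 bp, and flanking windows lay 1000 bp either side of a summit. Python 3.11.15, numpy 2.4.6, pandas 2.3.3 and scipy 1.17.1 were used; the repeat search and overlap routine were tested on made sequences. The members and gene lists were chosen with earlier results of these data known. Named peaks were the 8 highest by pileup near a protein-coding TSS per list, the 8 highest shared ones, the 5 longest runs and 4 highest distal ones per list, and gene list members with a repeat; 1 promoter peak of the B cell list is not reported here; Klhdc10 and Ercc2 were added after their values had been seen.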

Additional observations from a re-analysis of the deposited data

How the results depend on the processing

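The 10 main shares and medians were recomputed under 68 alternatives, 46 planned and 22 chosen after seeing the data. Of the 68, 42 stayed inside the 95% interval of the main value. For the medians this was an interval based on ranks and not a Wilson interval. Repeat share in fibroblasts (main 10.5%) was 17.7% with 3 or more units, 9.03% with 6 or more, 14.4% within 100 bp of the summit, 15.4% with −log10 p of 5 or more, 15.9% with −log10 q of 2 or more and 6.80% with runs of 4 to 25 units; in B cells (21.0%) it was 28.3%, 19.1% and 24.1% under the first 3 and 13.1% under the last. The flanking windows then held 10.2%, 0.801% and 4.04% for fibroblasts and 10.2%, 0.904% and 4.10% for B cells. The shared share in fibroblasts (17.5%) was 14.4% with 3 or more units and 14.7% with runs of 4 to 25 units. At the stricter p and q it was 20.7% and 20.9%, against 17.4% and 18.2% for peaks without the repeat. In B cells (18.4%) the shared share was 15.3% with runs of 4 to 25 units and 15.7% against fibroblast peaks of −log10 p of 5 or more. The promoter share was 11.7% in fibroblasts and 11.0% in B cells at 500 bp, and 20.8% in B cells with 3 or more units. Myc overlap (40.5%) was 45.1% and 45.2% at the stricter p and q, where it was 58.3% and 59.0% for peaks without the repeat. RNAPII overlap (29.0%) was 16.0% with the broad list. The median pileup percentile in fibroblasts (71.7) was 58.7 with 3 or more units, 60.3 at the stricter p and 58.2 at the stricter q; in B cells (56.0) it was 60.8 when ranked by fold. Without chromosome 15, which held the most fibroblast peaks, no fibroblast value left its interval. No paired analysis was possible because each group held 1 library. The fibroblast library was the shallower one and its members' median pileup of 12.0 tags limits how precisely weak summits are placed.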

Other observations

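Members were spread unevenly over chromosomes, along with the lists they came from. Fibroblast Miz1 peaks of any kind were most dense on chromosome 15, at 7.85 per Mb, and on chromosome 19, at 6.45 per Mb, against 1.60 per Mb on chromosome 1. Members made up 7.74%, 10.4% and 13.4% of the fibroblast peaks there. On chromosome X, 9 of 217 fibroblast peaks (4.15%) and 15 of 57 B cell peaks (26.3%) were members.

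TA repeats of the same length were rarer at Miz1 summits than beside them, at 0.229% against 0.753% in fibroblasts and 0.134% against 0.681% in B cells. CG repeats were found at 0.386% of the fibroblast summits and 0.217% of their flanking windows, and at 0.536% and 0.123% in B cells. At Myc summits at 0 min CG repeats were at 0.885%, against 0.180% in the flanking windows.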
